A study of Mus musculus with 32 samples.

Results

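F-box, Asb and Klhl genes encode the substrate-binding parts of cullin ubiquitin ligases, and their messenger RNA was followed through injury and repair of mouse muscle. The genes were chosen by name, as protein-coding genes whose symbol starts with Fbxo, Fbxl, Fbxw, Asb or Klhl and goes on with a digit. Fbxo21, Fbxo30 and Fbxo32 were left out. The rule gave 129 of the 54532 genes listed, which were 34 Fbxo, 18 Fbxl, 23 Fbxw, 18 Asb and 36 Klhl genes. Of these, 104 had enough counts to be tested (29 Fbxo, 17 Fbxl, 9 Fbxw, 16 Asb and 33 Klhl). The other 25 were not tested, and 14 of them had no counts in any library. Those 14 were 12 Fbxw genes, Klhl1 and Klhl14.

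RNA-seq counts came from tibialis anterior, a fast muscle of the shin, of C57BL/6J mice, with 4 libraries in each of 8 groups. Old mice given BI01, which the series describes as a senolytic, were sampled 7 and 35 days after injury with barium chloride. Old mice given vehicle and young mice given vehicle were each sampled at day 7, at day 35 and without injury. No allele or transgene is named for any group, and ages, the dose of BI01 and its schedule are not stated in the labels. Whether libraries of a group are separate animals is not stated, so p-values measure only the spread between these samples, which may be technical. Old muscle without further mention is from mice given vehicle.

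A cullin ligase is built on a scaffold that holds a ubiquitin-loaded enzyme at one end and a substrate receptor at the other. F-box proteins bind Cul1 through Skp1, Asb proteins bind Cul5 through elongins B and C, and Klhl proteins join Cul3 directly through their BTB domain. Each receptor chooses which proteins are tagged, usually for the proteasome. Several Asb and Klhl genes are known mainly from striated muscle, where some receptors act on proteins of the sarcomere and others protect them.

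Total counts were 14129350 to 30439358 per library. The counts were scaled with TMM factors, and levels are CPM (counts per 1e6 scaled counts). Calls rest on edgeR's quasi-likelihood test over all 17121 genes tested, at adjusted p-values under 0.05. Every uninjured library is named PBS and belongs by name to the 35-day set, so the effect of day 7 against uninjured muscle and that of the collection set cannot be told apart. The table does not give strand, and 17 of the 104 tested members overlap another gene with at least 0.1 times their counts. The values of those named here (Klhl38, Asb5, Fbxl22, Fbxl2, Fbxl14, Fbxw10 and Fbxo36) are uncertain for that reason.

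Some libraries stood apart. In young uninjured muscle, libraries 1 and 3 lay on 1 side of libraries 2 and 4 in 18 of the 19 striated muscle members, above in 8 and below in 10. They did so in 55 of all 104 tested members, above in 29 and below in 26. Asb18 had 4.33, 31.4, 8.73 and 48.8 CPM in these libraries 1 to 4, and Fbxo31 had 552, 313, 513 and 327 CPM. In old muscle at day 7, library 7 was the lowest of its group in 17 of the 19, and in 50 of all 104 tested members. The summed level of 10 fast-fibre markers was 12053 CPM in that library, against 60838 to 76892 CPM in libraries 8 to 10.

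The 19 striated muscle members were Klhl30, Klhl31, Klhl33, Klhl34, Klhl38, Klhl40, Klhl41, Asb2, Asb5, Asb8, Asb10, Asb11, Asb12, Asb14, Asb15, Asb16, Asb18, Fbxo40 and Fbxl22. Levels per kilobase use the gene length listed with the counts, not the span of the gene on the chromosome. Asb2, a receptor that acts on filamin B, had the highest level per kilobase of any member in young uninjured muscle, at 534 CPM. It was followed by 348 CPM for Klhl41, which protects thin-filament proteins and is mutated in human nemaline myopathy. Asb5 came next at 208 CPM per kilobase, then Fbxo40, a muscle receptor that tags the insulin receptor substrate IRS1, at 182, and Klhl31 at 91.2. At day 7 in young muscle the order changed, with 346 CPM per kilobase for Klhl41 and 45.8 for Asb2.

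Promoters of 4 of these members are shown because they hold a motif that is known from muscle genes and that few promoters hold. RefSeq windows of 300 bases, 250 before to 50 after the start, were found for 17 of the 19 in assembly GRCm38.p6. The MEF2-type motif CTANNNNTAG was in 5 of the 17 (29.4%), against 8.33% of 84 tested members and 3.69% of 32851 promoters. The E-box CAGCTG was in 41.2% of the 17, against 27.4% of tested members and 16.3% of all promoters. The FoxO-type motif GTAAACA was in 11.8%, 2.38% and 3.65% of the same sets. Both strands were searched, the motifs share no bases in the sequences shown, and a match describes letters, not a site. The windows below are chr11:102268501-102268800 on the plus strand (Asb16), chr1:90014617-90014916 on the minus strand (Asb18), chr14:50897434-50897733 on the minus strand (Klhl33) and chr2:69669870-69670169 on the plus strand (Klhl41). Capitals mark motif matches.
Asb16: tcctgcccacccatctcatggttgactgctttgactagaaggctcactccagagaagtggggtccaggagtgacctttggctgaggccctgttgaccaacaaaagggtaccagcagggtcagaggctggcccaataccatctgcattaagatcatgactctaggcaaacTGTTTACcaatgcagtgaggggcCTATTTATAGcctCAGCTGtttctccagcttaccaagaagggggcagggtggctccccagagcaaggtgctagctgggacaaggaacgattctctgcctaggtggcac
Asb18: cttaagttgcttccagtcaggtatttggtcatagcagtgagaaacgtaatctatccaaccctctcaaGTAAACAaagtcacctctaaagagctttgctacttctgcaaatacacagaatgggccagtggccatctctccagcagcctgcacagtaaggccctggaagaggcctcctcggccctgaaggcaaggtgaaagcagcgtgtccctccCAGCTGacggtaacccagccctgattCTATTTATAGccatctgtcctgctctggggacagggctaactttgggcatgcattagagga
Klhl33: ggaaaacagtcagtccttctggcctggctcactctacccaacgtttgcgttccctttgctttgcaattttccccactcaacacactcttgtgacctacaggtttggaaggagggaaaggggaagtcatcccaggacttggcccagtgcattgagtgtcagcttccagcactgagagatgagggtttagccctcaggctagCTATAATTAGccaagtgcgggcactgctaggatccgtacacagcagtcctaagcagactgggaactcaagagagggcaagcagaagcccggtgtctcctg
Klhl41: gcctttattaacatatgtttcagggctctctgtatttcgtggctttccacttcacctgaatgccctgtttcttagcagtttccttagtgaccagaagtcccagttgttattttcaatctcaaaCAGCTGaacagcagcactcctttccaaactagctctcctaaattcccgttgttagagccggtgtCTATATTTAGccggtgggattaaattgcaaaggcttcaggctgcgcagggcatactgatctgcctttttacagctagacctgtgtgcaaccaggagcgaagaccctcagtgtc
The MEF2-type match began 58 bases before the start in Asb16, 11 in Asb18, 50 in Klhl33 and 63 in Klhl41. Asb12 held the fifth, in a window whose start lies far from the start in the counted gene model, so its sequence is not shown. The E-box was present in Asb16, Asb18 and Klhl41, and the FoxO-type match in Asb16 and Asb18. The genes with these letters did not move alike at day 7: Asb16, Asb18 and Klhl33 were lower in both ages, and Klhl41 was called in neither.

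Injury at day 7 came with lower messenger RNA for most striated muscle members. Of the 19, 17 were called lower and 1 higher in old muscle, and 13 lower and 1 higher in young muscle. Their median log2 fold change was -2.36 in old and -1.96 in young muscle, against 0.14 and 0.17 over all genes tested. Over all 104 members, 46 were lower and 28 higher in old muscle (44.2% and 26.9%), where 29.8% of all genes were lower and 34.4% higher. In young muscle 43 were lower and 27 higher (41.3% and 26.0%), where 27.5% of all genes were lower and 33.3% higher. Of these calls, 36 lower and 24 higher were shared by the ages and none was opposite.

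The scaling bears on these counts. With library size alone, the median of all genes at day 7 moved to 1.15 in old and 1.05 in young muscle, and the split of members became 64 higher and 25 lower in old and 57 higher and 22 lower in young muscle. The striated muscle members were then 2 higher and 13 lower in old, and 4 higher and 10 lower in young muscle. Of the members called, 12 in old and 10 in young muscle had the opposite sign with library size alone, with log2 fold changes of 0.327 to 0.911 and 0.403 to 0.896 in size under TMM.

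**Figure D1:**
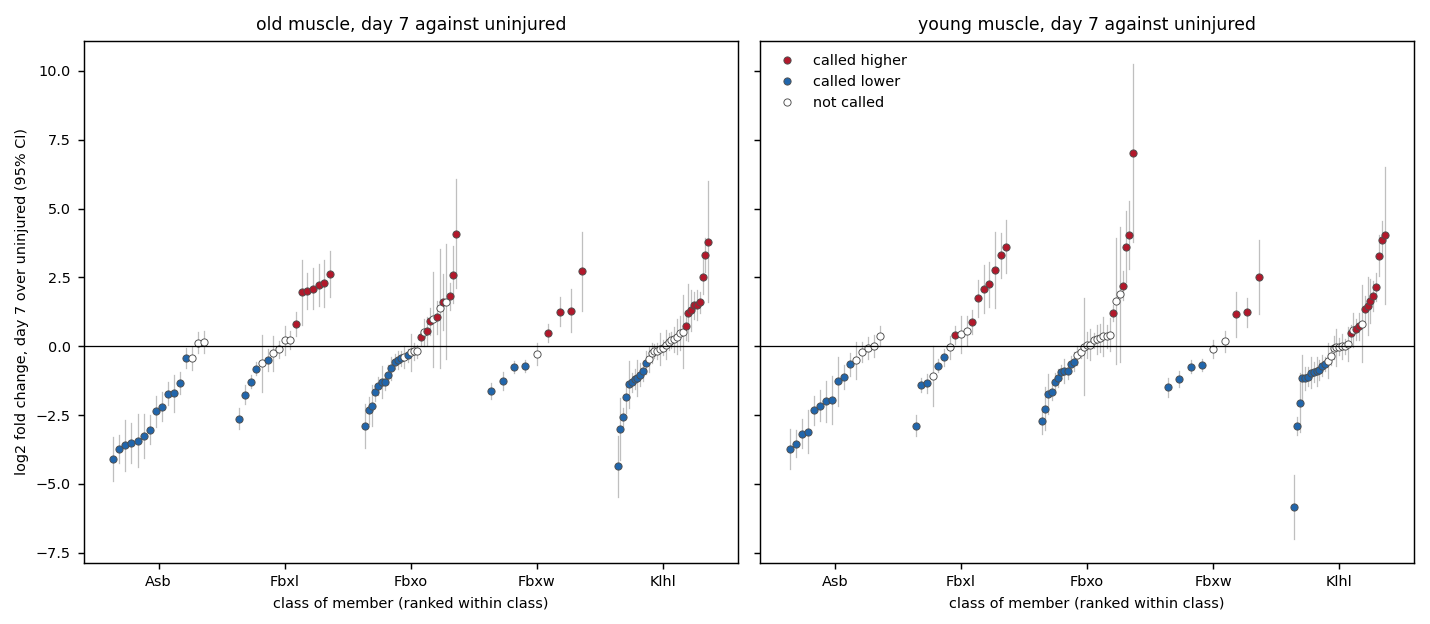
Log2 fold change of day 7 over uninjured muscle for each tested member, by family, with old muscle in the left panel and young muscle in the right; bars are 95% confidence intervals. Red points are called higher, blue lower and white neither; no Asb gene is red in either panel, and Klhl38 is the lowest point in both.

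Most Asb genes were lower: 13 of 16 tested in old and 11 of 16 in young muscle were called lower and none higher, with medians of -2.28 and -1.62, where 29.8% and 27.5% of all genes were lower. Scaled by library size alone, the medians were -1.31 and -0.76, with 11 lower and 4 higher in old and 8 lower and 4 higher in young muscle. The other families had calls in both directions. Among 33 Klhl genes, 11 were lower and 9 higher in old and 12 lower and 11 higher in young muscle. Among 29 Fbxo genes, 13 were lower and 8 higher in old and 11 lower and 5 higher in young muscle. Among 17 Fbxl genes, 5 were lower and 7 higher in old and 5 lower and 8 higher in young muscle, and among 9 Fbxw genes 4 were lower in each age, with 4 higher in old and 3 in young muscle.

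Klhl38 (chr15:58314573-58324169 in mm10, minus strand) had the largest fall of any member in both ages. It had 0.322, 2.37, 1.75 and 1.60 CPM in old muscle at day 7, against 21.0, 35.1, 32.2 and 34.2 CPM in old uninjured muscle. Young libraries had 0.316, 2.25, 3.37 and 1.34 CPM at day 7, against 118, 88.8, 143 and 64.7 CPM uninjured. No library at day 7 came near an uninjured one. The log2 fold change was -4.36 (SE 0.54, adjusted p = 8.45e-08) in old and -5.83 (SE 0.57, adjusted p = 1.6e-09) in young muscle. Counts of the antisense gene Gm15943, which overlaps Klhl38, cannot be told apart from it without strand.

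Asb2 (chr12:103321142-103356001, minus strand) had 66.5, 119.9, 143 and 118 CPM in old muscle at day 7, against 1490.1, 1533, 1522 and 1387 CPM in old uninjured muscle. Levels in young muscle were 148, 141, 189.9 and 170.1 CPM at day 7, against 2356, 1406, 2147 and 1654 CPM uninjured. The groups were far apart in both ages, with log2 fold changes of -3.73 (SE 0.24, adjusted p = 2.19e-13) in old and -3.54 (SE 0.24, adjusted p = 5.44e-13) in young muscle. Fbxo40 (chr16:36963460-36990467, minus strand) had 13.3, 83.6, 83.1 and 139.5 CPM in old muscle at day 7, against 632, 547, 611 and 599 CPM uninjured. In young muscle it had 170.0, 142, 197 and 329.6 CPM at day 7, against 1283, 667, 1238 and 835 CPM uninjured. It fell by 2.90 (SE 0.40) in old and by 2.26 (SE 0.39) in young muscle on the log2 scale.

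Other Asb members of muscle also fell. Asb11, a gene linked to Notch signalling in zebrafish, averaged 8.03 ± 4.97 CPM at day 7 and 136 ± 7.48 CPM uninjured in old muscle, and 14.1 ± 4.1 and 121 ± 27.8 CPM in young muscle (SD, n = 4 each). On the log2 scale Asb11 fell by 4.09 in old and by 3.11 in young muscle. Asb10 fell by 3.60 and 1.96, Asb14 by 3.27 and 2.01, Asb15 by 3.03 and 3.18, Asb16 by 2.36 and 2.16, and Asb5 by 2.19 and 2.32, in old and young muscle in that order. Klhl33 fell by 3.01 and 2.06 and Klhl30 by 1.86 and 0.95, in the same order. Klhl30 had overlapping groups in young muscle (83.6 ± 27.3 CPM at day 7 and 162 ± 95.5 CPM uninjured) and was not called there with library size alone or without uninjured library 1 (adjusted p = 0.0816).

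Klhl34 was called lower in both ages, at 1.77 ± 0.591 CPM at day 7 and 4.66 ± 1.39 CPM uninjured in old muscle, and 3.46 ± 1.17 and 7.80 ± 2.06 CPM in young muscle. Neither call held with library size alone, and the young one was lost without uninjured library 4 (adjusted p = 0.0589) or day 7 library 6 (adjusted p = 0.0537). Asb18 had 0.902, 4.49, 4.78 and 2.49 CPM in old muscle at day 7, against 43.6, 24.9, 32.7 and 34.2 CPM uninjured, a log2 fold change of -3.42 (SE 0.48, adjusted p = 4.91e-07). Young libraries had 8.41, 7.54, 9.16 and 13.4 CPM at day 7. These lay among the young uninjured libraries, and the call there (log2 fold change -1.27, adjusted p = 0.0141) was lost without uninjured library 2 (adjusted p = 0.0502) or 4 (adjusted p = 0.203).

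Some muscle members had levels at day 7 that, with TMM scaling, lay among the uninjured ones. Klhl41 (chr2:69670120-69684230, plus strand) had 259.7, 866, 715 and 853 CPM in old muscle at day 7, against 909.8, 1114, 882 and 839 CPM uninjured. Levels in young muscle were 775, 688, 947 and 1093 CPM at day 7, against 759.7, 916, 887 and 961 CPM uninjured. The groups overlapped in both ages and neither difference was called. The log2 difference was -0.47 (95% interval -0.93 to -0.02, adjusted p = 0.0645) in old and -0.01 (-0.47 to 0.45, adjusted p = 0.9751) in young muscle. With library size alone it was 0.48 in old and 0.85 in young muscle.

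Klhl40 (chr9:121777607-121783818, plus strand), which stabilises nebulin and leiomodin 3, was not called in young muscle. It had 145, 162, 180.0 and 245 CPM in young muscle at day 7, against 223, 146, 222 and 167 CPM uninjured, a log2 difference of -0.05 (-0.47 to 0.37, adjusted p = 0.842). In old muscle it had 54.4, 137, 145 and 129 CPM at day 7, against 169, 178, 189 and 167 CPM uninjured. That was a call (-0.59, SE 0.21, adjusted p = 0.0138) whose sign turned with library size alone (0.37), and which was lost without day 7 library 7 (adjusted p = 0.0671). Klhl31, a Klhl gene of heart and skeletal muscle, averaged 287 ± 178 CPM at day 7 and 638 ± 46.7 CPM uninjured in old muscle, and 414 ± 174 and 592 ± 154 CPM in young muscle. It was called in old muscle (adjusted p = 0.00198), a call that library size alone ended, and was not called in young muscle (adjusted p = 0.148). Asb12 averaged 10.7 ± 5.97 and 35.0 ± 4.58 CPM in old muscle, where it fell by 1.71 on the log2 scale, and 21.1 ± 9.19 and 29.96 ± 11.2 CPM in young muscle, where it was not called.

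Fbxl22 (chr9:66508459-66514593, minus strand), an F-box gene of the sarcomere that acts on alpha-actinin and filamin C, was the 1 muscle member that rose. It had 17.1, 25.8, 45.3 and 17.1 CPM in old muscle at day 7, against 4.88, 10.3, 4.96 and 4.25 CPM uninjured. In young muscle it had 16.2, 29.8, 35.2 and 41.1 CPM at day 7, against 4.10, 2.58, 3.03 and 2.60 CPM uninjured. The groups did not overlap, and the log2 fold change was 2.09 (SE 0.37, adjusted p = 1.19e-05) in old and 3.30 (SE 0.40, adjusted p = 3.3e-08) in young muscle. Fbxl22 lies within reach of reads of Herc1, which had 59341 counts over all libraries against 10433 for Fbxl22.

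**Figure D2:**
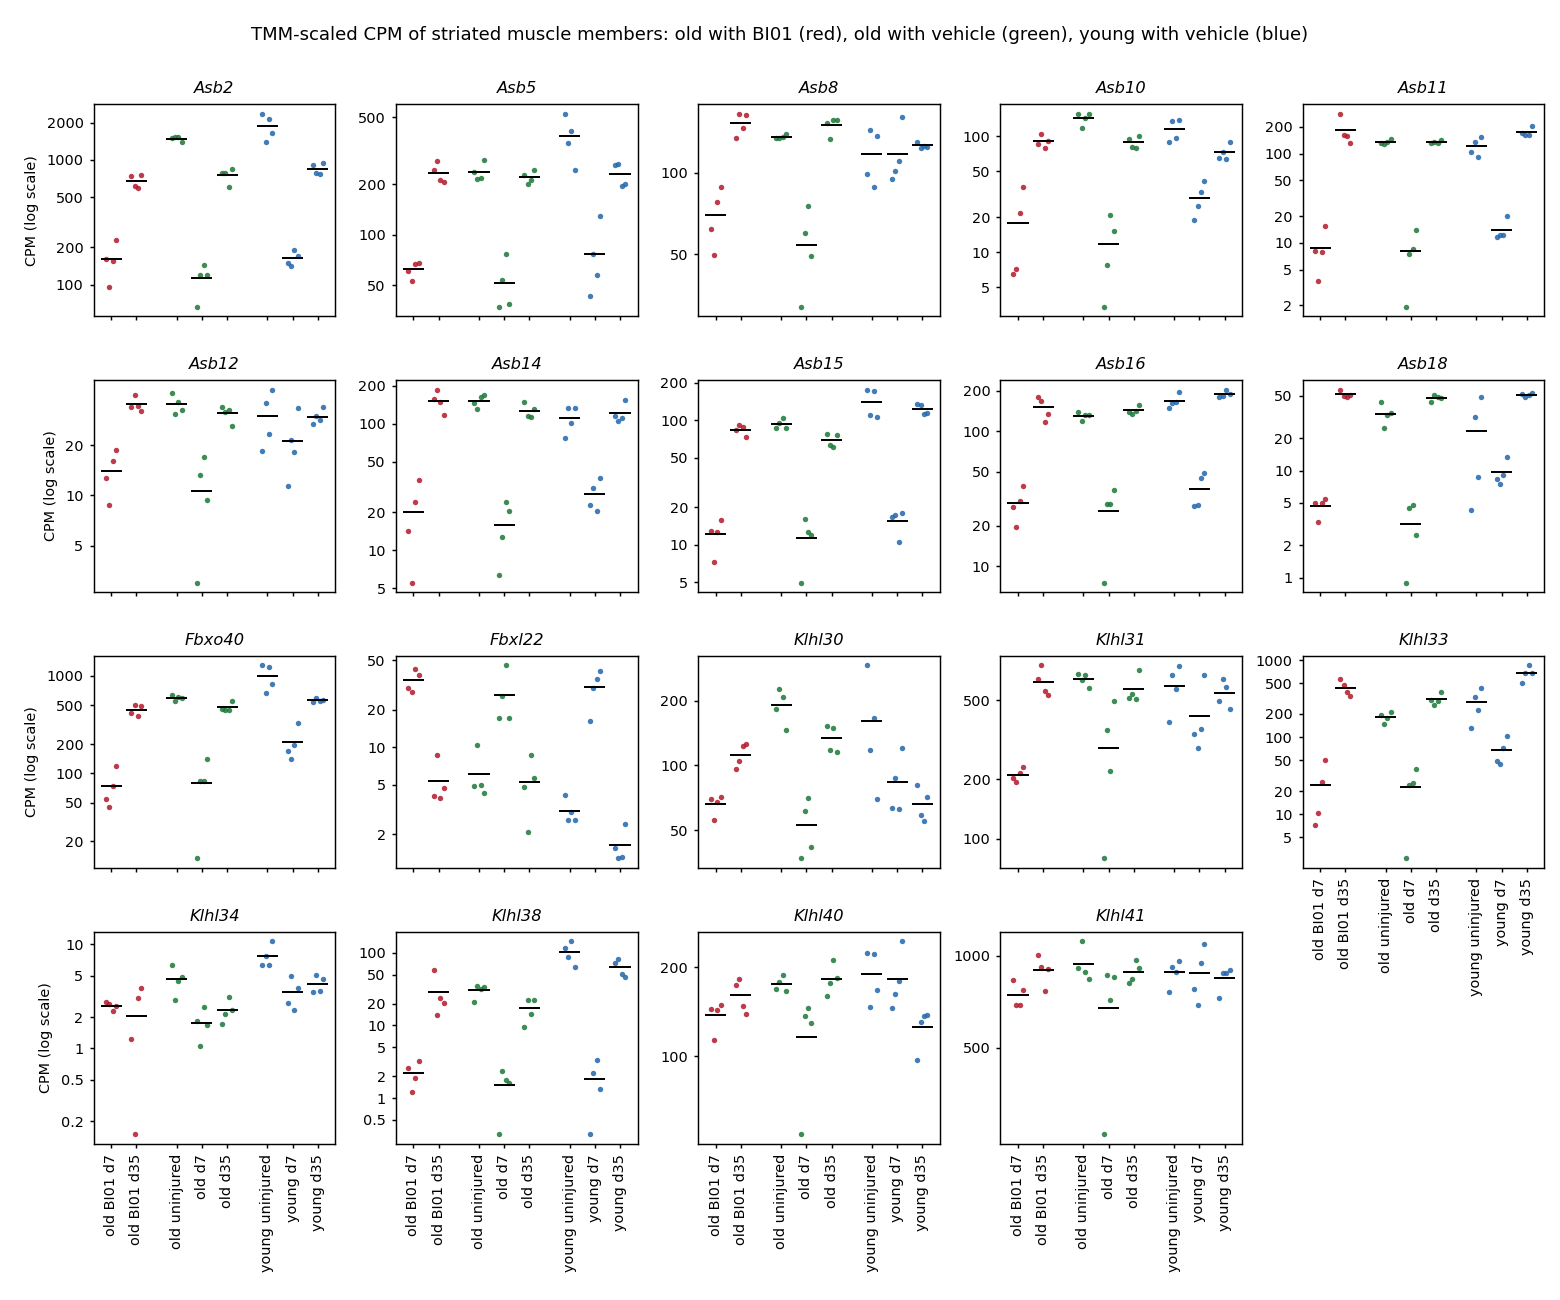
CPM of the 19 striated muscle members in each library (points, log axis) with the mean of each group as a black line; old muscle given BI01 is red, old muscle given vehicle green and young muscle given vehicle blue, each in order of time. Klhl38 and Asb2 lie far lower at day 7 in both ages, Klhl40 and Klhl41 at day 7 lie among the uninjured libraries in young muscle, and Fbxl22 is higher at day 7 in both ages.

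Markers of other cells and of fibre type moved with the injury. The summed level of the 10 fast-fibre markers was 12053 to 76892 CPM in old muscle at day 7 and 239450 to 244840 CPM uninjured, with 9 of 10 called lower. In young muscle it was 80724 to 171990 and 257050 to 330970 CPM, with 7 of 10 called lower. All 6 regenerating-fibre markers, all 6 macrophage markers, all 5 fibroblast markers and all 5 markers of dividing cells were called higher in both ages. Macrophage markers summed to 803 to 2031 CPM in old muscle at day 7 and 29.0 to 168 CPM uninjured, and to 559 to 1089 and 19.9 to 117 CPM in young muscle. Their part in the changes of the ligase genes was not tested, and fewer cells of a type and less RNA per cell cannot be told apart in these whole-muscle samples.

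Members known from cell division went both ways. Klhl13, which with Klhl9 and Klhl21 moves Aurora B during mitosis, had 32.7, 47.1, 36.9 and 38.3 CPM in old muscle at day 7, against 2.59, 6.96, 3.84 and 1.94 CPM uninjured. Young libraries had 48.3, 36.1, 35.2 and 30.7 CPM at day 7, against 1.16, 2.05, 2.67 and 4.53 CPM uninjured. It rose by a log2 fold change of 3.31 (SE 0.31, adjusted p = 2.15e-10) in old and 3.87 (SE 0.33, adjusted p = 4.95e-11) in young muscle. Klhl21 fell in both ages. It had 27.4, 38.0, 35.0 and 24.4 CPM in old muscle at day 7, against 185, 174, 176 and 208 CPM uninjured. Its levels in young muscle were 31.1, 43.2, 40.4 and 46.0 CPM at day 7, against 346, 301, 275 and 272 CPM uninjured. The log2 fold change of Klhl21 was -2.57 (SE 0.17, adjusted p = 1.57e-13) in old and -2.89 (SE 0.17, adjusted p = 2.14e-14) in young muscle. Klhl9 was called in neither age.

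Fbxo5, also called Emi1, which holds back the anaphase-promoting complex, had 10.1, 3.25, 2.54 and 2.54 CPM in old muscle at day 7, against 1.22, 0.637, 0.640 and 0.587 CPM uninjured. Levels in young muscle were 4.78, 4.87, 3.14 and 2.20 CPM at day 7, against 0.155, 0.356, 0 and 0.386 CPM uninjured. It rose in both ages, by 2.60 in old and 4.05 in young muscle. Fbxo31, which tags cyclin D1 after DNA damage, fell by 2.33 in old and by 2.70 in young muscle. Fbxo4, another cyclin D1 receptor, rose in old muscle by 0.90 and Klhl22, which acts on Plk1, was called lower in young muscle at -0.63, a direction that turned with library size alone (0.26). Fbxw7, the cyclin E receptor, was not called in either age.

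Members with other roles were lower or higher as follows. Fbxl4, a mitochondrial F-box protein mutated in human mitochondrial DNA depletion, had 7.12, 9.35, 9.25 and 6.20 CPM in old muscle at day 7, against 45.0, 50.9, 49.02 and 53.4 CPM uninjured. In young muscle it had 6.40, 7.46, 11.4 and 6.36 CPM at day 7, against 68.2, 50.7, 63.5 and 52.1 CPM uninjured. It fell by 2.63 (SE 0.18) in old and 2.89 (SE 0.19) in young muscle. Asb4, known from blood vessels, averaged 1.72 ± 0.48 CPM at day 7 and 19.8 ± 4.35 CPM uninjured in old muscle, and 2.29 ± 1.39 and 30.2 ± 8.62 CPM in young muscle. Klhl6, a gene of B cells, averaged 7.54 ± 1.81 and 1.30 ± 0.284 CPM in old muscle, and 4.35 ± 1.53 and 0.442 ± 0.0781 CPM in young muscle, and rose in both.

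Fbxw11 was called lower at -0.71 in old and -0.69 in young muscle, and its sign turned with library size alone (0.28 and 0.19). In the list named for glycoprotein binding, Fbxo27 rose by 1.61 in old and 3.62 in young muscle. Fbxo44 fell by 2.16 and 1.74 and Fbxo6 by 1.28 and 1.66, and Fbxo17 was called in neither age. Binding by each listed gene was not tested. The old call of Fbxo6 ended with library size alone. Klhl3, a receptor of WNK kinases mutated in human familial hypertension with high potassium, rose by 1.49 in old and 1.83 in young muscle. Its relative Klhl2 was not called. Klhl25, which acts on a repressor of translation, averaged 8.23 ± 0.748 CPM at day 7 and 3.25 ± 1.17 CPM uninjured in young muscle, a rise of 1.34, and 6.11 ± 2.17 and 5.14 ± 0.605 CPM in old muscle, not called. Klhl24 was called lower in both ages (-1.04 and -1.16) and in neither with library size alone. Fbxo7, Klhl12 and Klhl20 had calls under 1 on the log2 scale that lay within the shift between scalings.

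Of 61 genes without a listed role, 21 were higher and 18 lower in old muscle, and 19 higher and 18 lower in young muscle. Those higher were 34.4% in old and 31.1% in young muscle, near the 34.4% and 33.3% of all genes. Of all genes, 29.8% were lower in old and 27.5% in young muscle. Scaled by library size alone, the 61 had 48 higher and 6 lower in old and 41 higher and 5 lower in young muscle. The largest rises of members with at least 1 CPM included Fbxl2, at 6.12 ± 1.86 CPM at day 7 and 0.943 ± 0.728 CPM uninjured in old muscle, and 4.91 ± 0.307 and 0.388 ± 0.128 CPM in young muscle. Fbxl2 overlaps Ubp1. Fbxw10, which overlaps Trim16, averaged 1.104 ± 0.668 and 0.157 ± 0.0836 CPM in old muscle. Fbxo16 averaged 1.56 ± 0.536 CPM in old muscle at day 7, where its 7 uninjured counts all came from library 7. Its log2 fold change there was 4.09, and without that library the uninjured group had no counts. In young uninjured muscle Fbxo16 had no counts, so its rise at day 7 was at least 12.7-fold, taking 3 counts over that group as the floor (0.066 CPM, counting error only).

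The scaffolds and linkers that these receptors join were read from a list of 34 genes of the cullin core and its regulators. At day 7, 28 of 34 were called lower and 3 higher in old muscle, and 24 lower and 3 higher in young muscle, with medians of -0.97 and -0.65. Over all genes, 29.8% were lower and 34.4% higher in old, and 27.5% and 33.3% in young muscle. Scaled by library size alone, the list had 10 lower and 9 higher in old and 6 lower and 14 higher in young muscle. Its medians turned to 0.04 and 0.22. Cul3, the scaffold of Klhl proteins, averaged 110 CPM at day 7 and 440 CPM uninjured in old muscle, and 169 and 576 CPM in young muscle, and was called lower under both scalings. Skp1a, the F-box linker, averaged 99.0 and 243 CPM in old muscle and 119.6 and 343 CPM in young muscle. Eloc, elongin C of the Asb ligases, averaged 27.2 and 86.1 CPM in old muscle and 24.6 and 67.1 CPM in young muscle, and both were likewise called lower under both scalings. Cul7 was higher, at 71.8 and 7.22 CPM in old muscle and 61.2 and 5.09 CPM in young muscle.

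Another list held 20 F-box and BTB receptors with other names, 19 of them tested. It had 7 higher and 7 lower in old and 8 higher and 6 lower in young muscle at day 7. Over all genes, 34.4% were higher and 29.8% lower in old, and 33.3% and 27.5% in young muscle. Scaled by library size alone, this list had 13 higher and 2 lower in old and 14 higher and 2 lower in young muscle. Its medians were then 1.06 and 1.17, where those of all genes were 1.15 and 1.05. Ccnf, the F-box protein cyclin F, averaged 8.50 CPM at day 7 and 0.723 CPM uninjured in old muscle, and 7.06 and 0.159 CPM in young muscle. Skp2, which tags the cell cycle inhibitor p27, averaged 9.09 and 1.18 CPM in old muscle and 4.88 and 0.873 CPM in young muscle. Keap1, which tags Nrf2, averaged 32.2 and 92.1 CPM in old muscle and 34.8 and 127 CPM in young muscle. Keap1 was called lower and Ccnf and Skp2 higher in both ages, under both scalings.

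At day 35 fewer members were called than at day 7, and 4 were called in both ages. In old muscle 3 of 104 were lower and 2 higher (2.88% and 1.92%), where 2.48% of all genes were lower and 3.18% higher. In young muscle 15 were lower and 9 higher (14.4% and 8.65%), where 8.66% of all genes were lower and 7.06% higher. With library size alone young muscle had 5 lower and 20 higher. The calls in both ages were Asb2, Asb4 and Fbxl4, lower, and Klhl23, higher. All 4 held in both ages when any single library was left out.

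Asb4 (chr6:5383386-5433022, plus strand) had 3.87, 3.19, 4.15 and 3.56 CPM in old muscle at day 35, against 23.2, 16.0, 23.9 and 16.1 CPM uninjured. Young libraries had 10.3, 11.2, 8.29 and 10.03 CPM at day 35, against 28.9, 40.7, 19.8 and 31.5 CPM uninjured. The groups did not overlap in either age, with log2 fold changes of -2.42 (adjusted p = 2.22e-05) in old and -1.60 (SE 0.32, adjusted p = 0.000804) in young muscle. Fbxl4 (chr4:22357543-22434091, plus strand) had 14.4, 12.9, 15.2 and 16.9 CPM in old muscle at day 35 and 20.5, 21.9, 16.4 and 24.7 CPM in young muscle. All lay below the uninjured libraries given above, with log2 fold changes of -1.74 (adjusted p = 2.14e-07) in old and -1.49 (SE 0.18, adjusted p = 1.44e-06) in young muscle. Asb2 had 788, 784, 608 and 847 CPM in old muscle at day 35 and 907, 789, 767 and 949.7 CPM in young muscle, again below every uninjured library. It fell by 0.97 (adjusted p = 0.0061) in old and by 1.15 (SE 0.22, adjusted p = 0.000629) in young muscle.

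Klhl23 (chr2:69821944-69836651, plus strand) went the other way. It had 23.0, 15.0, 19.0 and 26.0 CPM in old muscle at day 35, against 9.37, 4.77, 4.56 and 5.83 CPM uninjured. Levels in young muscle were 18.1, 18.0, 18.8 and 23.5 CPM at day 35, against 6.26, 8.89, 7.91 and 9.93 CPM uninjured. No library overlapped, and the log2 fold change was 1.76 (adjusted p = 2.49e-05) in old and 1.25 (SE 0.24, adjusted p = 0.000728) in young muscle. Klhl23 was also called higher at day 7 in both ages, at a mean of 10.2 ± 3.73 CPM in the old and 13.6 ± 3.1 CPM in the young group. Those calls were lost without day 7 library 10 in old (adjusted p = 0.0681) and day 7 library 7 in young muscle (adjusted p = 0.0969).

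**Figure D3:**
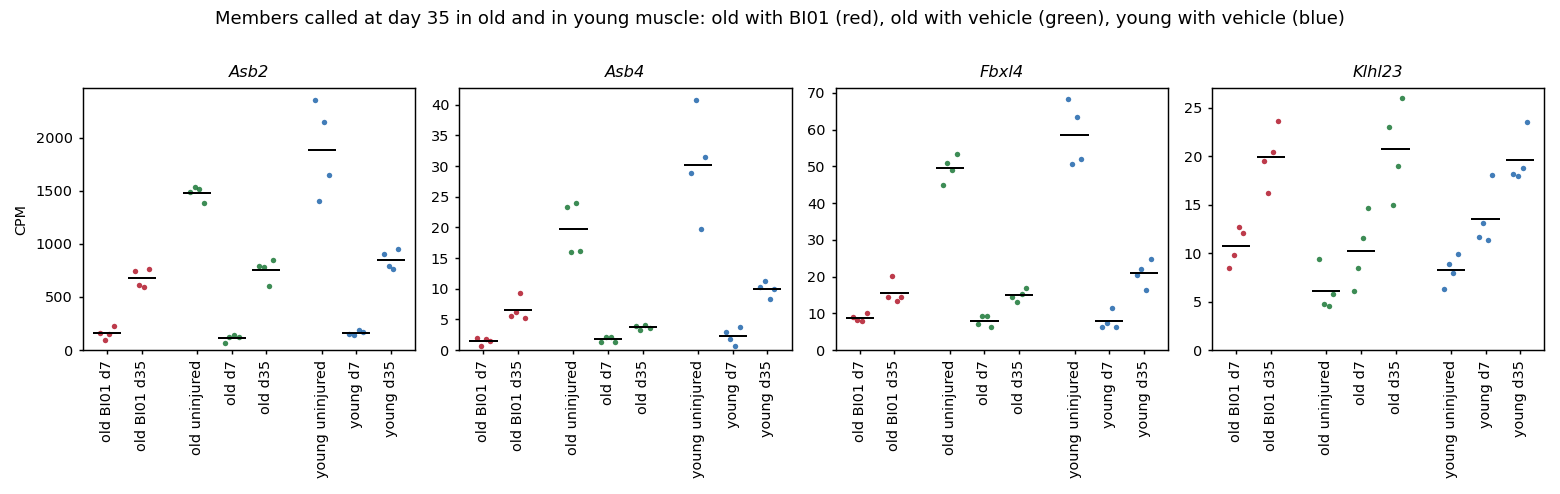
CPM in each library (points, linear axis from 0) with the mean of each group as a black line, for Asb2, Asb4, Fbxl4 and Klhl23; colours and order of groups are those of the muscle member plot. At day 35 Asb2, Asb4 and Fbxl4 lie below every uninjured library of their age, and Klhl23 lies above.

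The fifth call in old muscle at day 35 was Klhl4, at 3.15 ± 0.908 CPM and 0.905 ± 0.527 CPM uninjured (log2 fold change 1.78, adjusted p = 0.0353). It was lost without old uninjured libraries 7, 8 or 9 or day 35 libraries 6, 7 or 9, with adjusted p-values of 0.0507 to 0.140. In young muscle the larger changes among the other calls were a fall of Fbxo34 (8.66 ± 0.659 CPM at day 35 and 14.8 ± 2.38 CPM uninjured), a fall of Klhl30 and rises of Fbxl16 and Fbxo18. Fbxl16 averaged 6.40 ± 1.34 CPM at day 35 and 2.19 ± 0.892 CPM uninjured, and Fbxo18, an F-box DNA helicase, 25.6 ± 3.01 and 16.0 ± 4.26 CPM. Fbxo36, which overlaps Trip12, and Klhl42 rose by 1.04 and 0.74. Klhl7 was lower at day 7 and higher at day 35, when it averaged 111 ± 3.2 CPM.

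Klhl30 had 81.0, 58.5, 55.1 and 71.3 CPM in young muscle at day 35, against 292, 118, 167 and 69.9 CPM uninjured, so that the groups overlapped. Its log2 fold change of -1.28 (SE 0.28, adjusted p = 0.00202) was -0.83 (adjusted p = 0.0294) without uninjured library 1. In old muscle Klhl30 was not called at day 35 (-0.51, adjusted p = 0.351). Of the 24 calls in young muscle, 9 held whichever library was left out. Leaving out uninjured libraries 1, 2, 3 and 4 ended 10, 4, 14 and 4 of the 24, and leaving out day 35 libraries 1, 2, 3 and 4 ended 13, 8, 8 and 10, with Asb5, Klhl40, Klhl42, Fbxo36 and Klhl7 among those lost. At day 35 the fast-fibre markers summed to 209200 to 272450 CPM in old muscle and 211880 to 269740 CPM in young muscle, with none of 10 called, while 4 of 5 fibroblast markers were called higher in each age. Their part in these results was not tested.

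In uninjured muscle, age separated 16 members. Of 104, 10 were lower and 6 higher in old muscle (9.62% and 5.77%), where 7.65% of all genes were lower and 5.79% higher. Scaled by library size alone, the split was 5 lower and 16 higher, and the median of all genes moved to 0.29, against 0.09 with TMM. Of the 19 striated muscle members 1 was called, Klhl38. It averaged 30.6 ± 6.50 CPM in old muscle, against 103.7 ± 34.3 CPM in young muscle, with no overlap between the libraries listed above. The log2 fold change was -1.76 (SE 0.46, adjusted p = 0.0113), and leaving out young library 3 ended the call (adjusted p = 0.0565).

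Of the 8 tested cell division members, 4 were lower in old uninjured muscle and none higher, where 7.65% of all genes were lower and 5.79% higher. Fbxo31 (chr8:121549440-121578806, minus strand) had 239, 218, 218 and 213 CPM in old muscle, against 552, 313, 513 and 327 CPM in young muscle, a log2 fold change of -0.94 (SE 0.23, adjusted p = 0.00643). Klhl21 (chr4:152008803-152017680, plus strand) had 185, 174, 176 and 208 CPM in old muscle, against 346, 301, 275 and 272 CPM in young muscle, a log2 fold change of -0.68 (SE 0.16, adjusted p = 0.00374). Klhl22 had 34.1, 35.3, 31.9 and 34.9 CPM in old muscle, against 58.4, 43.0, 57.2 and 40.2 CPM in young muscle, a log2 fold change of -0.55 (SE 0.12, adjusted p = 0.0032). Each old library lay below each young one for all of these. The other was Klhl9, at 66.7 ± 3.65 CPM in old muscle, against 102.8 ± 26 CPM in young muscle. With library size alone the calls of Klhl22 and Klhl9 ended, and of the 8 members 2 were lower and 1 was higher.

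Klhl15 and Klhl24 were also lower in old uninjured muscle, by log2 fold changes of -0.82 and -0.74. Fbxo18 had 28.4, 29.0, 26.6 and 27.0 CPM in old muscle, against 12.7, 17.5, 12.4 and 21.3 CPM in young muscle, a rise of 0.80 (SE 0.14, adjusted p = 0.000465). Klhl6 had 1.07, 1.67, 1.36 and 1.08 CPM in old muscle, against 0.386, 0.445, 0.552 and 0.386 CPM in young muscle, a rise of 1.55 (SE 0.38, adjusted p = 0.00626). Klhl29, Fbxl16 and Fbxo22 rose by 1.15, 1.06 and 0.43. All 6 regenerating-fibre markers and 3 of 6 slow-fibre markers were called higher in old uninjured muscle, with regenerating-fibre sums of 102 to 1227 CPM in old muscle and 52.2 to 90.3 CPM in young muscle, and none of the 6 macrophage markers was called. Their part in these results was not tested.

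Of these 16 calls, 7 held whichever library was left out: Fbxo31, Klhl21, Fbxo42, Klhl22, Fbxo18, Klhl29 and Klhl6. Leaving out young libraries 1, 2, 3 and 4 ended 4, 1, 7 and 1 of the 16, and leaving out old libraries 6, 7, 8 and 9 ended 3, 4, 3 and 3.

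At day 35 the age difference of Klhl38, Fbxo31, Klhl21 and Klhl22 was called again, in libraries other than the uninjured ones. Within each age those libraries share column numbers with the uninjured ones. Whether a number marks a shared animal is not stated, so the calls at day 35 and without injury may not be independent. Of 104 members 9 were lower and 2 higher in old muscle (8.65% and 1.92%), where 1.79% of all genes were lower and 1.72% higher. Klhl38 had 9.46, 22.1, 14.3 and 22.7 CPM in old muscle at day 35, against 73.1, 81.2, 51.9 and 46.0 CPM in young muscle, a log2 fold change of -1.88 (SE 0.47, adjusted p = 0.0198). Klhl21 had 174, 170.2, 143 and 178 CPM in old muscle, against 364, 319, 298 and 285 CPM in young muscle, a log2 fold change of -0.93 (SE 0.16, adjusted p = 0.000444). Fbxo31 had 141, 162, 120.2 and 162 CPM in old muscle, against 327, 277, 276 and 206 CPM in young muscle, a log2 fold change of -0.89 (SE 0.23, adjusted p = 0.0226). In each of the 3 genes the old libraries lay below all young ones.

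**Figure D4:**
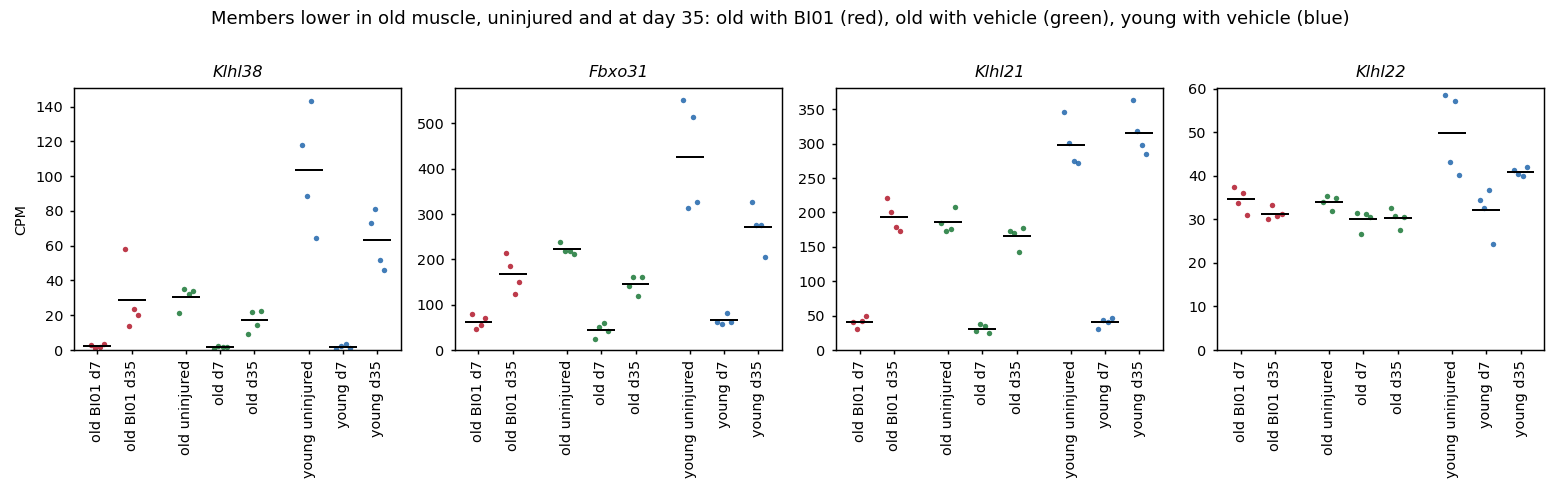
CPM in each library (points, linear axis from 0) with the mean of each group as a black line, for Klhl38, Fbxo31, Klhl21 and Klhl22; colours and order of groups are those of the muscle member plot. Old libraries lie below young ones without injury and at day 35, and at day 7 the ages overlap in all 4 genes.

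Asb4 was lower in old muscle at day 35 as well (3.69 ± 0.411 CPM, against 9.95 ± 1.21 CPM in young muscle, a log2 fold change of -1.43 with SE 0.33 and adjusted p = 0.00986). So were Asb15 (69.4 ± 8.59 and 124 ± 12.01 CPM), Klhl7 (65.6 ± 3.02 and 111 ± 3.2 CPM) and Fbxl20 (31.8 ± 2.83 and 48.1 ± 5.86 CPM). Klhl30 (134 ± 19.9 and 66.5 ± 11.9 CPM) and Fbxl22 (5.27 ± 2.68 and 1.64 ± 0.542 CPM) were higher in old muscle. Of those named, Asb4, Klhl21 and Klhl7 held whichever library was left out. Leaving out old libraries 6, 7, 8 and 9 ended 5, 4, 6 and 3 of the 11 calls, and leaving out young libraries 1, 2, 3 and 4 ended 6, 7, 5 and 3, with those of Klhl30, Fbxl22, Klhl38, Fbxo31, Asb15, Fbxl20 and Klhl22 among them.

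At day 7 the ages differed in fewer members. Of 104, 5 were lower and none higher in old muscle (4.81%), where 2.18% of all genes were lower and 0.251% higher. Scaled by library size alone, 1 was lower and 4 were higher. The log2 difference of all 19 striated muscle members was below 0 with TMM scaling, with a median of -0.67, and 2 of them were called. The median of all genes tested was 0.04. Under library size alone the median of the 19 was -0.34, with 1 call, where the median of all 104 was 0.22 and that of all genes 0.36. Old library 7 was the lowest of its group in 17 of the 19, and its part in the shared direction was not tested. Asb8 (chr15:98134637-98165625, minus strand) had 31.99, 59.9, 75.6 and 49.2 CPM in old muscle, against 94.8, 101, 111 and 161 CPM in young muscle, a log2 fold change of -1.11 (SE 0.20, adjusted p = 0.00615). Fbxo40 was lower by a log2 difference of -1.39 (adjusted p = 0.0434), and Fbxl17, Klhl7 and Fbxo3 were lower by -0.64, -0.59 and -0.56. None of the 5 calls held whichever library was left out: Asb8 was lost without young library 7 (adjusted p = 0.054), and the other 4 also without young library 6 or old library 7 or 8, and Fbxl17 and Klhl7 without old library 10. None was called when only these groups were fitted. The summed fast-fibre markers were 12053 to 76892 CPM in old muscle and 80724 to 171990 CPM in young muscle at day 7, with none of 10 called between the ages, and their part in these differences was not tested.

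The difference between the ages in the change from uninjured to day 7 was tested as an interaction. It was called for 9 of 104 members, 6 with a lower and 3 with a higher change in old muscle (5.77% and 2.88%), where 4.48% of all genes were lower and 3.22% higher. Asb8 fell by 1.33 (SE 0.20, adjusted p = 1.1e-06) in old muscle and had a log2 difference of -0.005 (-0.41 to 0.40, adjusted p = 0.984) in young muscle, an interaction of -1.32 (adjusted p = 0.00648). The call in old muscle ended with library size alone (-0.35). Asb18 had an interaction of -2.15 (adjusted p = 0.0344), with the young uninjured libraries spread as described above. Fbxo9 averaged 24.6 ± 8.34 CPM at day 7 and 61.0 ± 5.64 CPM uninjured in old muscle, and 38.8 ± 11.8 and 37.1 ± 13.5 CPM in young muscle (-1.37, adjusted p = 0.032).

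Klhl25, Fbxo18 and Fbxo22 had interactions of -1.09, -0.90 and -0.65, and Klhl5, Fbxo42 and Fbxo38 of 0.98, 0.74 and 0.71. Klhl5 averaged 23.9 ± 3.77 CPM at day 7 and 7.88 ± 1.79 CPM uninjured in old muscle, and 19.3 ± 3.65 and 12.6 ± 1.15 CPM in young muscle. Fbxo18 reached 34.6 ± 2.53 CPM in old muscle and 37.1 ± 3.51 CPM in young muscle at day 7, and its uninjured level differed with age as given above. Asb8, Fbxo18 and Fbxo42 held whichever library was left out, and none of the 9 held when only these 4 groups were fitted. The other 6 were lost in part without young uninjured library 1 or 3 (5 of the 9 each), without young day 7 library 5, 6 or 7 (1, 3 and 4), without old uninjured library 6, 7, 8 or 9 (4, 1, 5 and 3) or without old day 7 library 7, 8 or 10 (4, 3 and 4). At day 35 no member had a called interaction, nor did any gene (0% higher and 0% lower), with 10 members and 1690 genes at an unadjusted p under 0.05, and with 14 genes called by DESeq2 and 1 by limma voom, none of them a member.

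BI01 against vehicle in old muscle gave no call among the members or among all genes at day 7 (0% higher and 0% lower) or at day 35 (0% higher and 0% lower). At an unadjusted p under 0.05 edgeR had 4 members and 1126 genes at day 7, and 4 members and 530 genes at day 35. DESeq2 called 1 gene at day 7 and 12 at day 35, none of them a member, and limma voom called none. The median log2 fold change of the members was 0.04 at both times.

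The members with the smallest p are given as values. Asb2 had 159, 94.7, 153 and 228 CPM with BI01 at day 7, against 66.5, 119.9, 143 and 118 CPM with vehicle, a log2 difference of 0.51 (95% interval 0.06 to 0.95, adjusted p = 0.741). Klhl21 averaged 40.5 ± 8.28 CPM with BI01 and 31.2 ± 6.35 CPM with vehicle at day 7, Fbxo31 62.5 ± 15.0 and 44.2 ± 15.9 CPM, and Klhl42 6.64 ± 0.786 and 9.16 ± 0.773 CPM. At day 35 Fbxl20 averaged 45.2 ± 5.30 CPM with BI01 and 31.8 ± 2.83 CPM with vehicle, a log2 difference of 0.50 (0.20 to 0.81, adjusted p = 1). Klhl18 averaged 13.7 ± 1.88 CPM with BI01 and 17.4 ± 1.77 CPM with vehicle at day 35, a log2 difference of -0.34 (-0.63 to -0.04, adjusted p = 1) with no overlap. Fbxl2 averaged 0.712 ± 0.436 CPM with BI01 and 1.34 ± 0.601 CPM with vehicle, with overlapping groups and a log2 difference of -0.92 (-1.82 to -0.02, adjusted p = 1). Asb4 had 5.61, 6.12, 9.24 and 5.16 CPM with BI01 at day 35, against 3.87, 3.19, 4.15 and 3.56 CPM with vehicle, so that the groups did not overlap. Its log2 difference was 0.82 (0.15 to 1.499, adjusted p = 1). Klhl38 was not among these but is given because it differed with age. It had 58.1, 13.9, 23.6 and 20.2 CPM with BI01 at day 35, against 9.46, 22.1, 14.3 and 22.7 CPM with vehicle, and 1 BI01 library was far above the rest.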

How the data were processed

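RNA was extracted from tibialis anterior muscle and sequenced as mRNA, per the labels' protocols. HISAT2 and the mm10 genome are named in the submitters' processing notes. Not given in the sources used here is which version was used, how reads were counted, on which annotation and with what strand setting. The authors deposited counts per gene in 32 columns, all of them used. Column names match groups but not single sample titles, so libraries are named by group and column number.

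Counts as deposited were filtered with filterByExpr, scaled by TMM and fitted in edgeR 4.0.16 (R 4.3.3) with 1 mean per group over all 32 libraries and robust quasi-likelihood. P-values were two-sided and adjusted by Benjamini and Hochberg over 17121 genes, with a threshold of 0.05. Adjusted p-values are edgeR's unless another tool is named. The pipeline was tested on simulated data. Means are given ± SD over 4 libraries, and CPM are per 1e6 scaled counts. No pair of libraries within a group agreed within sampling noise. A floor of 3 counts over a group covers counting error only.

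Groups were compared in 9 pairs, and 2 interactions of age with injury were tested. Comparisons of the same age share their uninjured libraries, and those of BI01 share vehicle libraries with the others. Alternatives were library size alone, no filter on low counts, limma 3.58.1 voom, DESeq2 1.42.0, only the groups compared, each library left out and, added after seeing the data, shared column numbers as a block. Named were the members of lists by known role, the 5 largest called changes each way with at least 1 CPM, and every call where a BI01 comparison, age at day 35 or an interaction had few. Values of 1 member that this rule names are not reported here. Other members named were chosen after their values were seen. The members and lists were chosen with earlier results of these data known. Promoters are RefSeq sequences of GRCm38.p6, matched by symbol for 103 of 129 members.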

Additional observations from a re-analysis of the deposited data

Results flagged for a closer look

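Single libraries far from the other 3 of their group were found in 8 of 152 groups over 19 members, and chance gives about 1 in 20. Klhl23 had 23.4985 CPM in young muscle at day 35 in library 4, against 18.0 to 18.8 CPM in the others. Klhl40 had 113.231 CPM in library 2 of old muscle with BI01 at day 7, against 144 to 149 CPM. Klhl41 had 728.605 CPM in library 1 of young muscle at day 35, against 878 to 896 CPM. Fbxo40 had 551.04 CPM in library 9 of old muscle at day 35, against 445 to 461 CPM. Fbxl22 had 10.305 CPM in library 7 of old uninjured muscle, against 4.25 to 4.96 CPM.

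Fbxo5 stood apart in 2 groups. It had 1.2195 CPM in library 6 of old uninjured muscle, against 0.587 to 0.640 CPM, and 10.1158 CPM in library 7 of old muscle at day 7, against 2.54 to 3.25 CPM. That day 7 library also had the lowest level of 17 of the 19 striated muscle members, and of 50 of all 104 tested members. Klhl6 had 1.16594 CPM in library 7 of old muscle at day 35, against 1.78 to 1.90 CPM.

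For 9 members the change from uninjured to day 7 differed between old and young muscle in the interaction test. The differences of log2 fold changes were -2.1501 for Asb18, -1.3696 for Fbxo9, -1.3238 for Asb8, -1.0899 for Klhl25, -0.89934 for Fbxo18 and -0.65399 for Fbxo22. They were 0.97541 for Klhl5, 0.74241 for Fbxo42 and 0.70604 for Fbxo38.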

How the results depend on the processing

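Counts below are of members called higher or lower. With library size alone, old against young uninjured muscle had 16 higher and 5 lower (main 6 and 10), day 7 had 64 higher and 25 lower in old (28 and 46) and 57 and 22 in young muscle (27 and 43), day 35 in young muscle had 20 and 5 (9 and 15), and age at day 7 had 4 and 1 (0 and 5). Without the filter on low counts, day 35 in young muscle had 5 and 5, age at day 7 had 1 lower, age at day 35 had 0 higher (main 2), and the day 7 interaction had 1 higher and 2 lower (3 and 6). With limma voom, uninjured muscle had 2 higher, day 35 had 7 lower in young and 1 higher in old muscle (main 2), age at day 7 had 1 higher and 11 lower, and age at day 35 had 1 higher. DESeq2 gave 6 higher in the day 7 interaction. With only the groups compared, uninjured muscle had 3 higher, day 35 had 5 higher in young, and 5 higher and 14 lower in old muscle (2 and 3), age at day 7 had 0 lower, age at day 35 had 8 higher and 17 lower (2 and 9), and the day 7 interaction had 0 and 0.

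Leaving out each library in turn gave 4 to 8 higher and 5 to 14 lower for age in uninjured muscle, 23 to 28 and 44 to 47 at day 7 in old, 25 to 28 and 41 to 46 at day 7 in young, 1 to 2 and 3 at day 35 in old, and 5 to 9 and 5 to 15 at day 35 in young muscle. It gave 0 to 11 lower for age at day 7, 0 to 2 higher and 4 to 7 lower for age at day 35, and 1 to 4 and 2 to 12 in the day 7 interaction. The cause of these moves was not tested.

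Of 140 values of single members, 137 kept their direction and side of the threshold with DESeq2, 117 with limma voom, 107 without the filter and 105 with library size alone, and 104 of 138 did with only the groups compared. Of day 7 calls those values hold only ones over 1 on the log2 scale, so the 12 old and 10 young calls at day 7 that turned sign with library size alone are outside them. Within them, the signs that turned were of day 7 differences not called with TMM. Asb8 in young muscle was 0.84539 with library size alone, 0.0003459 with limma voom, 0.0067002 with DESeq2, 0.01587 with only the groups compared and -0.271 to 0.109 with a library left out. Klhl40 in young muscle was 0.79688 with library size alone and -0.305 to 0.0444 with a library left out. Klhl41 in young muscle was 0.85144 with library size alone, 0.00071117 with DESeq2, 0.012271 with only the groups compared and -0.209 to 0.0904 with a library left out, and in old muscle 0.47864 with library size alone. Low counts limit members such as Fbxo16, Fbxo27 and Fbxo5.

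Day 35 and uninjured libraries share column numbers within each age, as do BI01 and vehicle at day 35 and 3 libraries of old muscle at day 7 and uninjured. The labels do not say that a number marks a shared animal. The deviations of same-numbered libraries from their group means were correlated over genes. At day 35 and uninjured the correlations were -0.0322 to 0.161 in young and 0.00889 to 0.109 in old muscle. They were -0.102 to 0.0343 for BI01 and vehicle, and 0.0408 to 0.152 in old muscle at day 7 and uninjured. Young day 35 libraries 1, 3 and 4 had 0.153 to 0.161 with their own number and at most 0.0654 with another. Best with their own number were 3 of 4 young, 2 of 4 old and 0 of 4 BI01 pairs, and 3 of 3 old pairs at day 7. The main fit did not take the numbers as pairs, and these correlations do not settle whether they are. A fit with a replicate block on these numbers, chosen after seeing the data, gave 12 higher and 13 lower at day 35 in young, 2 and 3 in old, and 26 and 47 at day 7 in old muscle, and none for BI01 or the day 35 interaction. It kept 62 of 66 values of single members. Fbxl14, Fbxo36 and Klhl40 at day 35 in young muscle lost their calls (adjusted p = 0.0574, 0.0524 and 0.0639), and Klhl41 at day 7 in old muscle gained one (-0.58, adjusted p = 0.0265).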
